A study of Saccharomyces cerevisiae with 12 samples.

Results

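Transcript signals of 10 genes of the glyoxylate cycle, gluconeogenesis and the transport steps around them were followed in Saccharomyces cerevisiae grown on xylose. The genes are ICL1, MLS1, MDH2, IDP2, PCK1, FBP1, SFC1, CIT2, CAT2 and JEN1, taken from a list of genes for growth on carbon sources without sugar, each through its 1 gene-specific probe set. They are 10 of the 5352 S. cerevisiae genes tested on the arrays, and all 10 lay above background on all 12 arrays. By their systematic names they are spread over 8 chromosomes and none lies on chromosome I. ACS1 and YAT1, which serve the same metabolism but lie on that chromosome, were not included.

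Total RNA of 12 cultures was measured on one-colour Affymetrix yeast arrays, which give 1 brightness value per probe set. The groups were 8 homozygotes obtained from an evolved strain (each its own strain, with 1 array), the evolved strain itself (n = 2) and the parental strain (n = 2), the duplicates being called biological replicates. All were started at an optical density at 660 nm of 0.1 in YPX medium with 4% xylose, a pentose sugar, shaken at 200 rpm and 35 °C, and collected after 25 h. The labels give no genotype for any of the strains, and the study's design text names the homozygotes against the parental strain as the comparison of interest.

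The glyoxylate cycle is a shortened form of the tricarboxylic acid cycle that lets yeast build C4 acids from acetyl units, so that cells can grow on ethanol, acetate or fatty acids. Isocitrate lyase (ICL1) and malate synthase (MLS1) are the enzymes particular to it, and gluconeogenesis then makes sugar phosphates from its products through PCK1 and FBP1. In yeast these genes are known to be repressed by glucose and switched on, when glucose is gone, by the kinase Snf1 and the activators Cat8, Sip4 and Adr1. CIT2, for the peroxisomal citrate synthase, is known instead as the classic target of the retrograde pathway, by which mitochondrial state acts on nuclear genes.

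The values are deposited intensities, without unit. S. pombe probe sets set a background of 18.7 to 19.6 intensity units per array, and the median tested gene was 26.2 to 28.6 times as bright. The members ranged from 241 for CAT2 to 5306 for CIT2, far above that background. The 2 parental arrays differed by a median absolute log2 difference of 0.22 over all genes, the 2 evolved arrays by 0.06, and for the 10 members these medians were 0.70 and 0.14. All 10 members were brighter on parental array 2 than on parental array 1, against 48.5% of all tested genes, and PCK1 and FBP1 differed more than 2-fold between these arrays. Between the evolved arrays, 9 of the 10 members were brighter on array 2, against 50.5% of all genes. Calls against the parental strain that ended without a parental array are given with that value. Relative to the mean of the parental arrays, the rRNA control probe sets were at -0.20 and -0.26 on the log2 scale in homozygotes 5 and 6, at -0.53 to -0.44 in the other 6 homozygotes and at -0.48 and -0.41 in the evolved arrays, and the part of these differences in the results was not tested.

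The first comparison asked how the 8 homozygotes differed from the parental strain in these genes. ICL1, MDH2, IDP2 and SFC1 fell and CIT2 and CAT2 rose in homozygotes at an adjusted p under 0.05, while MLS1, PCK1, FBP1 and JEN1 did not pass. These 6 of 10 stand beside 31.2% of all tested genes, of which 18.0% passed in the lower direction and 13.2% in the higher direction. The median log2 change of the 10 members was -0.53, beside -0.04 over all tested genes. In a culture, fewer cells that express a gene and less RNA per cell cannot be told apart.

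Among the enzymes of the glyoxylate cycle, ICL1 (YER065C), isocitrate lyase, had the largest change of the members. Its signal in homozygotes 1 to 8 was 380, 514, 400.3, 512, 1049, 1308, 807 and 356. It was 362 and 382 in the evolved arrays, and 1499 and 1956 in the parental arrays. Every homozygote and both evolved arrays thus lay below both parental arrays, and homozygotes 5, 6 and 7 stood above the other 5 homozygotes. The ratio of the group means on the log scale made ICL1 2.88-fold lower in homozygotes than in the parental strain, a log2 change of -1.52 ± 0.41 (SE, limma adjusted p = 0.0138). Without parental array 1 the change was -1.72 (adjusted p = 0.0411), and without parental array 2 it was -1.33 and no longer passed (adjusted p = 0.0905).

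MLS1 (YNL117W), malate synthase, joins glyoxylate with acetyl-CoA in the step after isocitrate lyase. Its lowest, median and highest homozygote signals were 436, 574 and 750.4, against 459 and 505 in the evolved arrays and 625 and 1180 in the parental arrays. Of the homozygotes 5 lay below both parental arrays and the other 3, homozygotes 5, 6 and 7, lay between them. The log2 change of -0.55 ± 0.23 did not pass (adjusted p = 0.0806), and it was -1.01 (adjusted p = 0.0105) without parental array 1 and -0.09 (adjusted p = 0.810) without parental array 2.

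MDH2 (YOL126C), the cytosolic malate dehydrogenase, serves both the glyoxylate cycle and gluconeogenesis. Its homozygote signals had a lowest, median and highest value of 1095, 1468 and 1989, against 1454 and 1606 in the evolved arrays and 1975 and 3169 in the parental arrays. Of the homozygotes 7 lay below both parental arrays, and homozygote 6 exceeded parental array 1 by little. The change was -0.78 ± 0.19 (adjusted p = 0.00718). It was -1.12 without parental array 1 (adjusted p = 0.0027) and -0.44 without parental array 2 (adjusted p = 0.133).

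CIT2 (YCR005C), the peroxisomal citrate synthase, went the other way. It was at 3514, 4335 and 5306 (lowest, median and highest) in homozygotes, against 3423 and 3939 in the evolved arrays and 2867 and 3317 in the parental arrays. All 8 homozygotes and both evolved arrays were above both parental arrays, and homozygote 7 was the highest. The rise was 1.37-fold, a log2 change of 0.45 ± 0.12 (adjusted p = 0.0124). It was 0.35 without parental array 1 (adjusted p = 0.123) and 0.56 without parental array 2 (adjusted p = 0.0187). CIT2 (higher) and ICL1 and IDP2 (lower) were thus the members whose homozygotes did not overlap the parental arrays. Such groups were found for 18.7% of all tested genes in the lower direction and 12.5% in the higher direction.

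**Figure D1:**
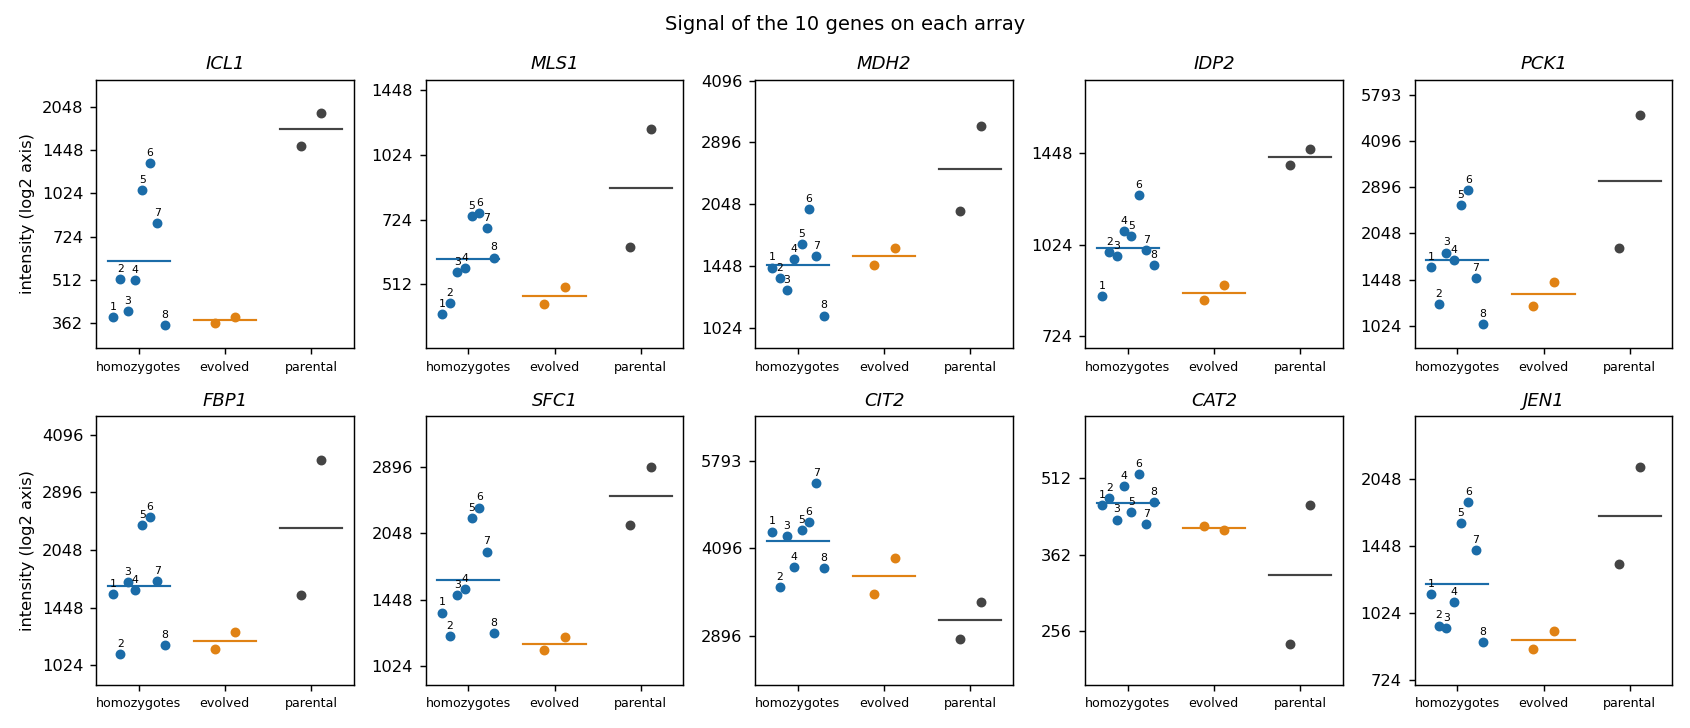
Deposited intensity (log2 axis) of the 10 genes on each array, with homozygotes numbered 1 to 8 and a line at each group's mean of log values. ICL1 and IDP2 were below both parental arrays in all 8 homozygotes, CIT2 was above both, and parental array 2 (right-hand point) was the brighter of its pair for all 10 genes.

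The committed steps of gluconeogenesis did not pass in the homozygotes. PCK1 (YKR097W), phosphoenolpyruvate carboxykinase, turns oxaloacetate into phosphoenolpyruvate. Its homozygote signals were 1039, 1631 and 2836 (lowest, median and highest), against 1190 and 1425 in the evolved arrays, and 1834 and 4988 in the parental arrays. Parental array 2 stood above every other array, and homozygotes 5 and 6 lay between the parental arrays while the other 6 lay below both. The log2 change was -0.85 ± 0.36 (adjusted p = 0.0874). It was -1.58 without parental array 1 (adjusted p = 0.0121) and -0.13 without parental array 2 (adjusted p = 0.834).

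FBP1 (YLR377C), fructose bisphosphatase, catalyses the other committed step and opposes phosphofructokinase. Its signals were 1093, 1649 and 2491 (lowest, median and highest) in homozygotes, against 1128 and 1252 in the evolved arrays and 1561 and 3513 in the parental arrays. Only homozygotes 2 and 8 lay below both parental arrays and none lay above both. The change of -0.51 ± 0.31 did not pass (adjusted p = 0.219), and its sign turned to 0.08 without parental array 2, whereas without parental array 1 it was -1.09 (adjusted p = 0.0324).

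IDP2 (YLR174W), the cytosolic isocitrate dehydrogenase that yields NADPH, had the steadiest fall. Homozygotes were at 844, 998 and 1235 (lowest, median and highest), evolved arrays at 831 and 877 and parental arrays at 1386 and 1469. All 8 homozygotes lay below both parental arrays, which differed by little for this gene. The change was -0.50 ± 0.11 (adjusted p = 0.00412), and it passed both without parental array 1 (-0.54, adjusted p = 0.0167) and without parental array 2 (-0.45, adjusted p = 0.0309).

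The 3 transport and shuttle genes did not move as one. SFC1 (YJR095W), the mitochondrial carrier that exchanges succinate for fumarate, was at 1197, 1507 and 2344 (lowest, median and highest) in homozygotes, against 1113 and 1190 in the evolved arrays and 2145 and 2907 in the parental arrays. Homozygotes 5 and 6 were within the parental range and the other 6 below it. Its fall of -0.64 ± 0.23 was close to the threshold (adjusted p = 0.0486), and it no longer passed without parental array 1 (-0.86, adjusted p = 0.0525) or parental array 2 (-0.42, adjusted p = 0.311). In all, 14 of 23 alternative settings ended this call.

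JEN1 (YKL217W) encodes the proton symporter for lactate and pyruvate in the plasma membrane. Its homozygote signals were 880.1, 1106 and 1814 (lowest, median and highest), against 849 and 933 in the evolved arrays and 1319 and 2170 in the parental arrays. Homozygotes 5, 6 and 7 lay between the parental arrays and the other 5 below them. The log2 change was -0.51 ± 0.25 (adjusted p = 0.145), and it was -0.86 without parental array 1 (adjusted p = 0.059) and -0.15 without parental array 2 (adjusted p = 0.76).

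CAT2 (YML042W), the carnitine acetyltransferase of peroxisomes and mitochondria that hands on acetyl units as acetylcarnitine, rose by 0.47 ± 0.16 on the log2 scale (adjusted p = 0.0429). Homozygotes were at 416, 456 and 519.9 (lowest, median and highest), against 411 and 405 in the evolved arrays and 241 and 453 in the parental arrays. Of the homozygotes 5 lay above both parental arrays, and parental array 2 was level with the homozygotes. The rise rested on parental array 1, since without it the change was 0.02 (adjusted p = 0.938) and without parental array 2 it was 0.92 (adjusted p = 0.000103), and 12 of 23 alternative settings ended the call.

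**Figure D2:**
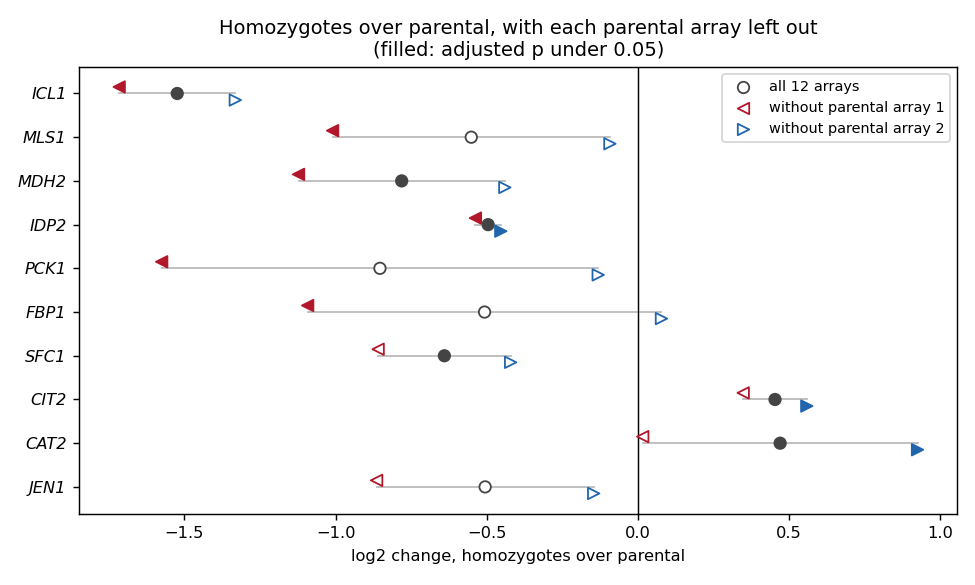
Log2 change of homozygotes over the parental strain for each gene with all 12 arrays (circles) and without parental array 1 or 2 (triangles), filled where the adjusted p is under 0.05. IDP2 passed in all 3 fits, PCK1 ranged from -1.58 to -0.13 and FBP1 from -1.09 to 0.08.

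The choice of arrays thus set how many members were called. Without parental array 1, 6 members fell and none rose, where 14.2% of all genes fell and 11.9% rose. Without parental array 2, 1 member (IDP2) fell and both CIT2 and CAT2 rose, where 17.4% fell and 13.9% rose. Without homozygotes 5 and 6, 7 members fell and 1 rose (15.5% of all genes fell and 11.2% rose), the added falls being MLS1 (-0.67, adjusted p = 0.0405), PCK1 (-1.08, adjusted p = 0.0227) and JEN1 (-0.68, adjusted p = 0.0229). Homozygotes 5 and 6 were the highest pair for 7 members, MLS1, PCK1 and JEN1 among them. Leaving them out must therefore deepen those falls, and the added calls are no separate support. With a weight estimated for each group of arrays, which was 0.29 for parental arrays, none of the 10 passed and 6.07% of all genes did. The SD among homozygotes, which weighs most in the fitted error, is smaller than the SD of the parental pair for 6 of the 10 members.

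The second comparison set the evolved strain against the parental strain. Both comparisons use the same parental arrays, so their values are not independent. ICL1, IDP2 and SFC1 fell and no member rose, where 8.41% of all genes were called, 5.21% as lower and 3.20% as higher. The median log2 change of the members was -0.88, beside -0.01 over all genes. In 8 of the 10 members, all but CIT2 and CAT2, both evolved arrays lay below both parental arrays, which held for 28.0% of all genes, and CIT2 was above both, which held for 23.8%.

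ICL1 was 4.60-fold lower in the evolved strain than in the parental strain, a log2 change of -2.20 ± 0.52 (adjusted p = 0.0201). The changes were -1.12 ± 0.29 for SFC1 (adjusted p = 0.0305) and -0.74 ± 0.14 for IDP2 (adjusted p = 0.00433). For the gluconeogenic PCK1 and FBP1 they were -1.22 ± 0.46 and -0.98 ± 0.39 and did not pass (adjusted p = 0.117 and 0.135). Nor did JEN1 with -0.93, MLS1 with -0.83 and MDH2 with -0.71 (adjusted p = 0.0923, 0.0923 and 0.0809). CIT2 was at 0.25 ± 0.15 (adjusted p = 0.346) and CAT2 at 0.30 ± 0.21 (adjusted p = 0.402), and CAT2 turned to -0.15 without parental array 1.

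Single arrays decided these counts as well. Without parental array 1 the 8 members with negative changes all fell (6.20% of all genes fell and 4.32% rose), and without parental array 2 IDP2 alone fell and CAT2 rose (8.59% of all genes fell and 7.53% rose). ICL1 missed the threshold without parental array 2 (-2.01, adjusted p = 0.0532) and without either evolved array (-2.16 and -2.24, adjusted p = 0.135 and 0.112). SFC1 missed it without parental array 2 (-0.90, adjusted p = 0.102) or either evolved array (adjusted p = 0.189 and 0.136), and IDP2 without evolved array 1 (-0.70, adjusted p = 0.0579). Fitted on the 4 arrays of these groups alone, which called 46 genes, ICL1 passed (adjusted p = 0.0334) but SFC1 and IDP2 did not (adjusted p = 0.0691 and 0.0604). With array weights, which called 184 genes, IDP2 passed (adjusted p = 0.0377) but ICL1 and SFC1 did not (adjusted p = 0.109 and 0.134). The fit with the array number as a replicate block called 154 genes. In it ICL1 and SFC1 passed (adjusted p = 0.00154 and 0.016) but IDP2 did not (adjusted p = 0.0643).

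**Figure D3:**
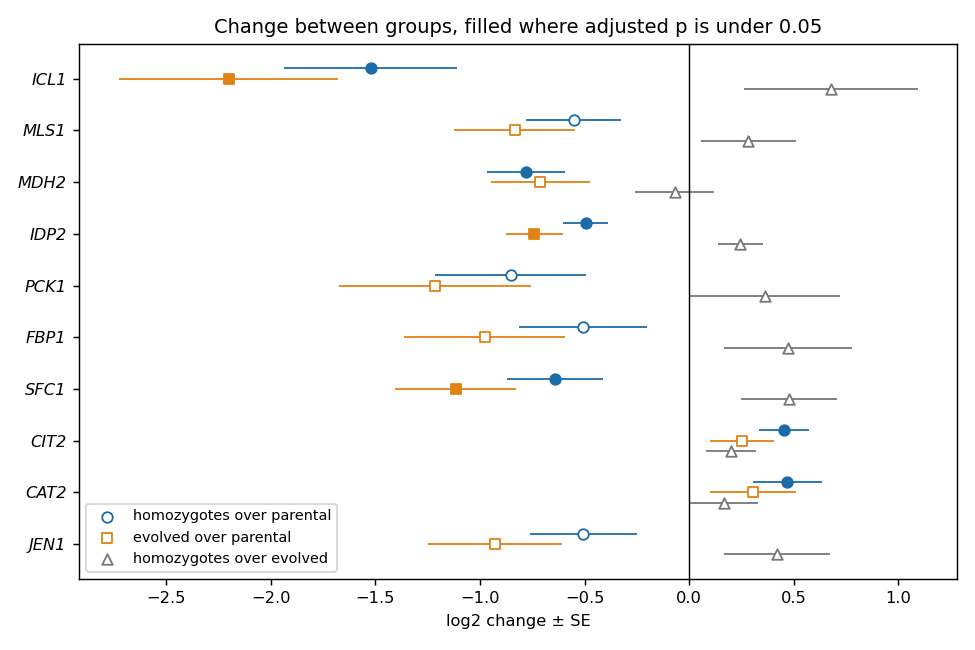
Log2 change with its SE for the 10 genes in homozygotes over parental, evolved over parental and homozygotes over evolved, filled where the adjusted p is under 0.05. Changes against the parental strain were negative for 8 genes, and no gene passed for homozygotes over evolved.

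The third comparison asked whether the homozygotes differed from the evolved strain they came from. No member passed, and limma called 0 of 5352 genes, with 1 member (IDP2) and 929 genes at an unadjusted p under 0.05. The 95% interval of the log2 difference ran from -0.21 to 1.57 for ICL1, from -0.42 to 1.14 for PCK1, from -0.19 to 1.13 for FBP1 and from -0.47 to 0.33 for MDH2. The difference was positive in 9 of the 10 members, all but MDH2 (-0.07), with a median of 0.32 against -0.01 over all genes. All 8 homozygotes exceeded both evolved arrays for SFC1 and CAT2, which held for 9.25% of all genes. With the array weights, which favour the evolved pair, 4 members passed as higher (IDP2, FBP1, SFC1 and JEN1), as did 12.5% of all genes.

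Among the 8 homozygotes the members varied more than most genes did. The SD of log2 signal over the homozygotes had a median of 0.33 for the members, beside 0.12 over all genes. ICL1 had an SD of 0.71, the 10th largest of 5352 genes, and a 3.67-fold range between homozygotes. The SD was 0.49 for PCK1, with a 2.73-fold range, 0.42 for FBP1, 0.39 for JEN1 and 0.37 for SFC1. At the other end were IDP2 with 0.16 and CAT2 with 0.11, and 39.8% of genes had a smaller SD than CAT2. An F test against the spread of the duplicate arrays called no gene (adjusted p = 0.9999 for each member), with 1 member, ICL1 (unadjusted p = 0.00346), and 120 genes at an unadjusted p under 0.05. Without parental array 1 or 2, when the evolved pair alone gave the duplicate spread, it called 3422 or 3406 genes and all 10 members, so this test hung on which duplicates entered. Each homozygote had 1 array, so that strain and culture cannot be told apart in this spread.

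The same homozygotes were high in most of these genes. Homozygote 6 had the highest signal for 9 members, all but CIT2, and homozygotes 5 and 6 were the highest pair for 7 members: ICL1, MLS1, MDH2, PCK1, FBP1, SFC1 and JEN1. Such ranks were not counted for all tested genes, so they cannot be read as particular to the members. The median difference of the 10 members from the parental mean was -0.19 in homozygote 5 and -0.09 in homozygote 6. It was -0.44 in homozygote 7 and lay between -0.98 and -0.63 in the other 5, where the evolved arrays had -0.95 and -0.81. Homozygotes 2 and 8 were the farthest down, and 8 of the members lay below both parental arrays in each of them, as in each evolved array. Homozygotes 5 and 6 are also the arrays whose rRNA control signals were nearest to the parental arrays, and the part of this in their higher signals was not tested. Homozygote 7, with ICL1 at 807, had an rRNA signal of -0.53 relative to the parental mean, the lowest of the 8.

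**Figure D4:**
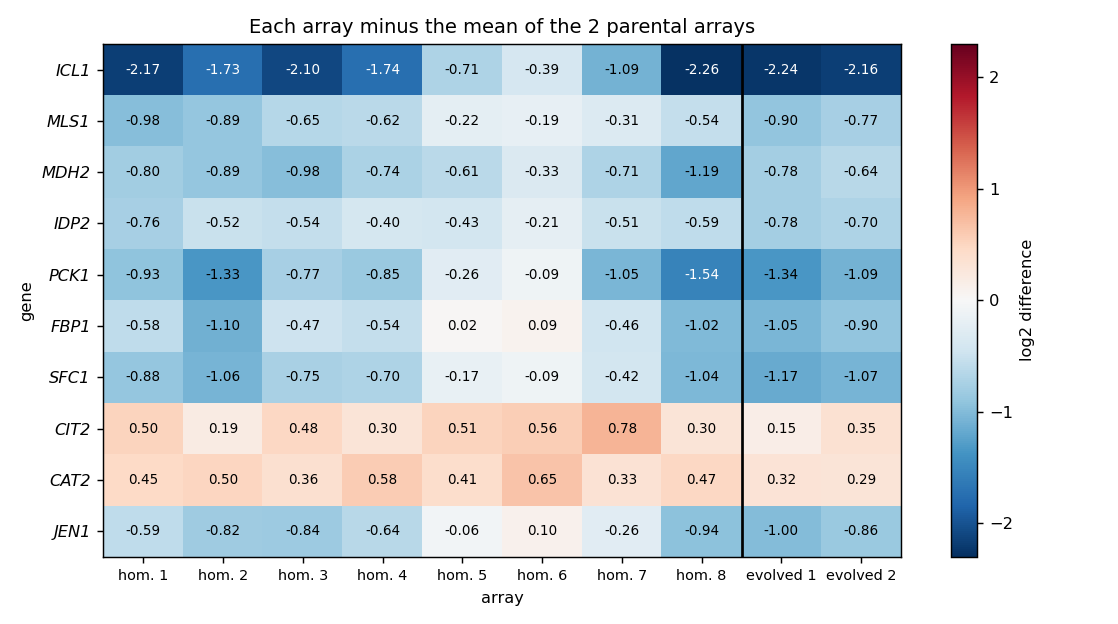
Log2 difference of each homozygote and evolved array from the mean of the 2 parental arrays, per gene. ICL1 was at -0.39 in homozygote 6 and -2.26 in homozygote 8, and CIT2 and CAT2 were positive in every column.

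Over the 8 homozygotes, 44 of the 45 pairs of members had a positive correlation of log2 signal, with a median Pearson r of 0.70, and 16 pairs had an adjusted p under 0.05 in an exact permutation test, two-sided and adjusted over the 45 pairs. With Spearman's rho 2 of the pairs passed. After median centring of the arrays 19 pairs passed by Pearson's r and 21 by Spearman's rho, 16 of them by both. No such counts were made for pairs of other genes, so they cannot be read as particular to the members. FBP1 and SFC1 had r = 0.95 and rho = 0.98 (exact permutation p = 0.000124 and 0.000397, adjusted p = 0.00335 and 0.00893), and r was 0.91 without the 2 homozygotes farthest from the median of FBP1. MDH2 and JEN1 had r = 0.92 and rho = 0.98 (exact permutation p = 0.000149 and 0.000397, adjusted p = 0.00335 and 0.00893), with 0.91 without the 2 farthest. The gluconeogenic pair PCK1 and FBP1 had r = 0.96 and rho = 0.83 (exact permutation p = 0.00275 and 0.0154, adjusted p = 0.0177 and 0.0692), with 0.94 without the 2 farthest.

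ICL1 went with JEN1 at r = 0.94 and rho = 0.83 (exact permutation p = 0.00146 and 0.0154, adjusted p = 0.0132 and 0.0692), and at 0.80 without the 2 farthest. With PCK1, ICL1 had r = 0.77 and rho = 0.62 (exact permutation p = 0.028 and 0.115, adjusted p = 0.0699 and 0.172), and r was 0.13 without the 2 farthest, so that relation rested on those homozygotes. CAT2 followed no other member at an adjusted p under 0.05, and its r with ICL1 was 0.25, with rho = 0.14 (exact permutation p = 0.544 and 0.752, adjusted p = 0.612 and 0.825) and -0.30 without the 2 farthest. CIT2 and CAT2, the genes that rose, had r = -0.41 and rho = -0.36 (exact permutation p = 0.312 and 0.389, adjusted p = 0.369 and 0.461), with -0.06 without the 2 farthest.

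Of all tested genes, those most like ICL1 over the 8 homozygotes, ranked by Pearson's r of log2 signal, were YGR067C with 0.98, BSD2 with 0.98, RTC2 with 0.97 and PIG2 with 0.97. YGR067C was at 152 and 113 in homozygotes 6 and 5, at 91.1 in homozygote 7 and at 41.2 to 51.0 in the other 5, so it shared the order of the 3 highest homozygotes with ICL1. Those most like CIT2 were ICY1 with 0.97, CAB5 with 0.96, and ORT1 and ARG1 with 0.95 each. ORT1, the mitochondrial ornithine carrier, and ARG1, argininosuccinate synthase, both belong to arginine synthesis, and ARG1 ran from 2580 in homozygote 2 to 4016 in homozygote 7, the same lowest and highest homozygotes as CIT2. These r values describe the 8 arrays and are the highest of 5351 comparisons each. The shared highest and lowest homozygotes come with that choice and are no separate finding.

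The genes that act on or beside the members were read from lists of partner enzymes and carriers, derepression regulators, the retrograde pathway and the GID ubiquitin ligase. In homozygotes against the parental strain 4 of 21 tested partner genes rose and 3 fell, with a median log2 change of 0.01. For this and the lists that follow, the background is again the 13.2% of all genes that rose and the 18.0% that fell, and with 8 to 21 genes per list none of the counts was tested against it. ADH2, the alcohol dehydrogenase that oxidises ethanol, had 114 to 227 in homozygotes, 109 and 117 in evolved arrays, and 202 and 516 in parental arrays. It fell by 1.05 ± 0.30 on the log2 scale (adjusted p = 0.018), and was at -1.72 without parental array 1 (adjusted p = 0.00153) and -0.37 without parental array 2 (adjusted p = 0.372). The oxaloacetate carrier gene OAC1 rose by 0.78 ± 0.16 (adjusted p = 0.00301), with and without each parental array, and was above both parental arrays in all 8 homozygotes. The oxodicarboxylate carrier genes ODC1 and ODC2 fell by 0.47 ± 0.11 and 0.48 ± 0.11 (adjusted p = 0.00824 and 0.00599), and neither passed without parental array 2 (adjusted p = 0.171 and 0.105). CIT1, for the mitochondrial citrate synthase and thus the counterpart of CIT2, was at 4042 to 5028 in homozygotes, 4391 and 4468 in evolved arrays and 4115 and 5116 in parental arrays, with a change of 0.04 ± 0.08 (adjusted p = 0.756) whose sign turned after quantile normalization (-0.03).

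Of the 15 derepression regulators 1 rose and 5 fell, with a median of -0.17. CAT8, whose product activates gluconeogenic genes, rose by 0.61 ± 0.15 (adjusted p = 0.00674). Its signal was 271 to 439 in homozygotes, against 234 and 238 in evolved arrays and 234 and 203 in parental arrays, so every homozygote was above all 4 other arrays. Against the evolved strain its difference was 0.50 ± 0.15 and did not pass (adjusted p = 0.163). SIP4, a second activator of the same promoters and itself a Cat8 target, fell by 0.82 ± 0.21 (adjusted p = 0.0103), at 123 to 238 in homozygotes, 137 and 137 in evolved arrays and 269 and 287 in parental arrays. Without parental array 2 neither CAT8 (0.51, adjusted p = 0.061) nor SIP4 (-0.77, adjusted p = 0.0579) passed.

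CAT8 and SIP4 were both highest in homozygotes 6 and 5, the homozygotes with the most ICL1. The same pair was highest for ADH2 and for the GID ligase genes VID30 and GID8, but not for ADR1, MIG2 and SIP2. How many of all genes share this highest pair was not counted, and the part of the rRNA difference of these homozygotes was not tested. ADR1, the activator of ADH2 and peroxisomal genes, was at 364 to 502 in homozygotes, 360.1 and 317 in evolved arrays and 342 and 424 in parental arrays (change 0.19 ± 0.12, adjusted p = 0.225). MIG2, a glucose repressor, fell by 1.48 ± 0.24 (adjusted p = 0.000614), the largest change of this list, with 26.8 to 56.3 in homozygotes, 58.0 and 64.7 in evolved arrays, and 114 and 87.1 in parental arrays. It passed with each parental array left out, but its homozygote signals are near the background of about 19. SIP2, a beta subunit of the Snf1 kinase, fell by 0.58 ± 0.20 (adjusted p = 0.0381), which rested on parental array 2 (-0.06 without it).

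**Figure D5:**
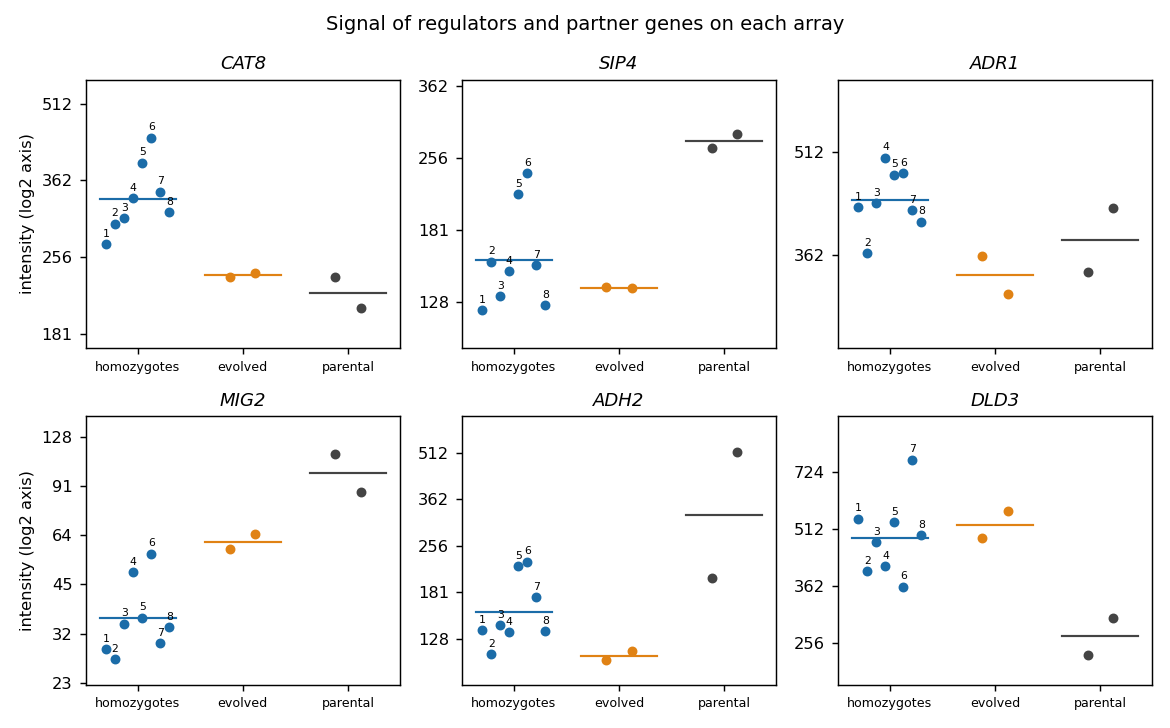
Deposited intensity (log2 axis) of regulators and partner genes on each array, with homozygotes numbered and a line at each group's mean of log values. CAT8 was above the evolved and parental arrays in all 8 homozygotes, while SIP4 and MIG2 were below both parental arrays in all 8.

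In the retrograde list 2 of 10 genes rose and 1 fell, with a median of 0.03. DLD3, a dehydrogenase gene known, like CIT2, as a retrograde target, rose by 0.86 ± 0.22 (adjusted p = 0.00918), with 360.1 to 780.2 in homozygotes, 484 and 570 in evolved arrays, and 238 and 298 in parental arrays. All 8 homozygotes and both evolved arrays were above both parental arrays, and the highest was homozygote 7, as for CIT2. The order differed otherwise, since homozygote 6 was the lowest for DLD3 (360.1) but ranked 2 for CIT2 (4544). Without parental array 1 the change was 0.70 (adjusted p = 0.0922), and without parental array 2 it was 1.03 (adjusted p = 0.0182). The other calls were small, a rise of 0.16 ± 0.05 for BMH1 (adjusted p = 0.034), which encodes a phosphoserine-binding adaptor protein, and a fall of 0.17 ± 0.06 for IDH1 (adjusted p = 0.0386), a subunit of mitochondrial isocitrate dehydrogenase. BMH1 did not pass without parental array 1 (0.10), and IDH1 did not without parental array 2 (-0.07).

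Of the genes for regulators in this list, RTG1, RTG2 and RTG3 were not called. RTG1 and RTG3, which encode the paired transcription factors, were at 0.10 ± 0.11 and 0.21 ± 0.14 (adjusted p = 0.521 and 0.27), and both signs turned without parental array 1 (-0.05 and -0.10). RTG2, the upstream sensor, was at -0.27 ± 0.10 (adjusted p = 0.0625). RTG2 passed as lower without parental array 1 (-0.43, adjusted p = 0.0191) and RTG3 as higher without parental array 2 (0.51, adjusted p = 0.0152).

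The GID ubiquitin ligase is known to mark gluconeogenic enzymes such as fructose bisphosphatase for breakdown once glucose returns. Of its 8 genes 2 rose and 1 fell, with a median of 0.25. VID24, the subunit that recognises those enzymes, fell by 0.41 ± 0.08 (adjusted p = 0.00282), at 1369 to 1732 in homozygotes, 1917 and 1947 in evolved arrays and 2033 and 2129 in parental arrays. Every homozygote was below all 4 other arrays, and the fall passed with each parental array left out. VID30 and GID8, scaffold subunits, rose by 0.44 ± 0.13 and 0.38 ± 0.12 (adjusted p = 0.0203 and 0.0277). VID30 did not pass without either parental array (adjusted p = 0.079 and 0.0796), and GID8 did not without parental array 1 (0.15, adjusted p = 0.423).

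In the evolved strain against the parental strain, where 3.20% of all genes rose and 5.21% fell, 0 of the 21 partner genes rose and 2 fell, 0 of the 15 derepression regulators rose and 1 fell, 1 of the 10 retrograde genes rose and 1 fell, and none of the 8 GID genes was called. ADH2 (-1.52 ± 0.38, adjusted p = 0.0255) and SIP4 (-1.02 ± 0.27, adjusted p = 0.0312) fell and DLD3 rose (0.98 ± 0.27, adjusted p = 0.0427). ODC1 fell by 0.50 ± 0.15 (adjusted p = 0.0481) and IDH1 by 0.29 ± 0.07 (adjusted p = 0.0312). CAT8 was at 0.12 ± 0.18 (adjusted p = 0.75), VID24 at -0.11 ± 0.11 (adjusted p = 0.59) and MIG2 at -0.70 ± 0.30 (adjusted p = 0.169). ADH2 did not pass when parental array 2 was omitted (-0.84, adjusted p = 0.121), nor SIP4 when either parental array was (-1.06 and -0.97, adjusted p = 0.0619 and 0.0659), nor DLD3 when parental array 1 was (0.82, adjusted p = 0.144). ODC1 and IDH1 did not pass when parental array 2 was omitted (adjusted p = 0.2 and 0.112). None of the 5 passed with 1 evolved array.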

How the data were processed

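From each sample 100 ng of total RNA entered labelling for a one-colour Affymetrix array, per the labels' protocols. For every array the authors deposited linear intensity values, 1 per probe set, and MAS5 is the tool listed, with no version, per the submitters' processing notes. How arrays were scaled is not given in the sources consulted. No further normalization was applied, and log2 was taken with no pseudocount. Gene names came from GEO's platform annotation, updated with the R64 gene table, and where a gene had several, a gene-specific one was preferred, then the brightest. Background was the 90th percentile of 1746 S. pombe probe sets on each array, and genes above it on at least 2 arrays were tested. No coordinates are printed, since no build is stated for the arrays.

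Groups came from the strain names in the labels. limma 3.58.1 in R 4.3.3 was fitted to all 12 arrays with 1 mean per group and trended variances, two-sided, with Benjamini-Hochberg adjustment over 5352 genes at 0.05, and no replicate block. Spread among homozygotes was tested by an F test of their variance over the moderated variance of the duplicates. The code was tested on simulated data. Folds are ratios of geometric means, and values after ± are SEs. The number of arrays limits the precision.

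Named genes are the 10 members, in each other list up to 4 called genes with the largest change in homozygotes against parental arrays, CAT8, SIP4, ADR1, CIT1, RTG1, RTG2 and RTG3, and the 4 genes most like ICL1 and CIT2. The members and lists were chosen with earlier results of these data known. Alternatives covered normalization, filters, floor, pseudocount, variance model, probe set choice, arrays left out and the replicate block.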

Additional observations from a re-analysis of the deposited data

Results flagged for a closer look

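Of the 34 named genes examined over the 8 homozygotes, 1 had an array far from the others. CIT1, for mitochondrial citrate synthase, was at 4042 in homozygote 3, against 4590 to 5028 in the other 7 homozygotes, a gap wide for the range of the group. Chance alone marks about 1 in 20 such groups.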

How the results depend on the processing

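All settings below were fitted to the same deposited intensities. Of the 34 named calls across the comparisons, all remained with a floor at background, the mean of probe sets, no filter and a stricter filter, 33 with a pseudocount of 16, 30 after quantile normalization, 29 after median centring, 27 without the variance trend and 4 with array weights. With only the arrays of the groups compared, homozygotes against parental gave 1474 genes, with 1 member higher and 3 lower. In the same setting evolved against parental gave 46 genes and 1 member lower, and homozygotes against evolved 1 gene. With array weights the calls were 325 genes, 0 members higher and 0 lower in homozygotes against parental, 184 genes and 1 member lower in evolved against parental, and 1549 genes with 4 members higher in homozygotes against evolved. Without homozygotes 5 and 6, the highest pair for 7 members, homozygotes against parental gave 1433 genes, with 1 member higher and 7 lower. Evolved against parental then gave 492 genes and 5 members lower. Those homozygotes are not in that comparison, so the changes of the added MDH2 (-0.71) and JEN1 (-0.93) stayed the same. Only the fitted error and the adjustment differed, so these calls are no separate support. With 1 homozygote left out at a time, homozygotes against parental gave 1467 to 1660 genes. Shares of all genes without a parental array were given with the first comparison. Leaving out 1 array at a time, homozygotes against parental gave 0 to 2 members higher, 1 to 6 lower, evolved against parental 118 to 863 genes, 0 to 1 members higher and 0 to 8 lower, and homozygotes against evolved 0 to 29 genes. For the spread among homozygotes these ranges were 0 to 3422 genes and 0 to 10 members, the high ends without parental array 1, or nearly so without parental array 2 (3406 genes, 10 members), when only the evolved pair gave the duplicate spread. Of the 45 correlations, Pearson's test passed 16 to 19 and Spearman's 2 to 21 over the scalings tried, the high ends after median centring. Log2 values that turned sign on leaving out 1 array ran, for homozygotes against parental, from -1.09 to 0.078 (FBP1), -0.12 to 0.19 (CIT1), -0.049 to 0.24 (RTG1) and -0.10 to 0.51 (RTG3). For evolved against parental they ran from -0.15 to 0.76 (CAT2), -0.21 to 0.11 (CIT1), -0.0092 to 0.11 (BMH1), -0.23 to 0.38 (RTG3), -0.11 to 0.36 (GID8) and -0.089 to 0.96 (DIT2), and for homozygotes against evolved from -0.14 to 0.0016 (MDH2), -0.088 to 0.019 (ODC2), -0.23 to 0.0015 (DLD3) and -0.028 to 0.20 (STE3). CIT1 was at -0.027 after quantile normalization. The cause of these changes was not tested. Parental and evolved arrays share the numbers 1 and 2, but over all tested genes same-numbered arrays did not deviate together (correlation -0.05), although array 2 was the brighter of its pair for 10 members in the parental and 9 in the evolved strain, and with the number as a replicate block over these 4 arrays evolved against parental gave 154 genes and 2 members lower, IDP2 no longer passing (-0.74, adjusted p = 0.0643).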

Other observations

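Genes of other cell states were read in the same arrays. Of the 14 genes of the haploid cell list 13 were above background on at least 1 array of each group, with a summed intensity of 1009 to 1246 in homozygotes, 1069 and 1113 in evolved arrays and 1078 and 1183 in parental arrays. Of its 13 tested genes 2 rose and 1 fell in homozygotes against parental arrays (13.2% and 18.0% of all genes): STE3 rose by 0.68 ± 0.18 (adjusted p = 0.0122) and STE18 by 0.41 ± 0.11 (adjusted p = 0.015), while STE2 fell by 0.41 ± 0.13 (adjusted p = 0.0294). STE3 was at 39.5 to 62.1 in homozygotes and at 25.6 and 42.1 in parental arrays. STE18 was at 40.4 to 53.7 in homozygotes and at 33.8 and 32.7 in parental arrays. Both genes are thus near the background of about 19. STE3 and STE2 did not pass without parental array 1 (adjusted p = 0.246 and 0.331), nor did STE18 without either parental array (adjusted p = 0.0528 and 0.0694).

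The 11 genes of the meiosis and sporulation list summed to 1109 to 1461 in homozygotes, 1248 and 1251 in evolved arrays and 991 and 1309 in parental arrays, and 2 of them rose and none fell, beside the same background. DIT1, of spore wall dityrosine synthesis, was at 125 to 168 in homozygotes, 131 and 123 in evolved arrays and 57.8 and 70.2 in parental arrays. Its rise was 1.15 ± 0.12 in homozygotes (adjusted p = 2.62e-05) and 0.99 ± 0.16 in the evolved strain (adjusted p = 0.00144) against the parental strain. DIT2, of the same pathway, rose by 0.62 ± 0.22 in homozygotes (adjusted p = 0.0472), a change of 0.09 without parental array 2. On that array its signal was 27.4, near the background of about 19. In the evolved strain 1 gene of the list rose, DIT1, and 1 fell, where 3.20% of all genes rose and 5.21% fell.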
